A study of Mus musculus with 6 samples.

Results

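The mitochondrial carrier family (Slc25) was examined in newborn mouse liver of wild-type mice and of mice labelled as knockouts of Igf2, which encodes insulin-like growth factor 2, a growth hormone of the fetus. Members were all genes whose symbol on the array begins with Slc25a and a number, apart from Slc25a13, Slc25a15 and Slc25a20, which the rule leaves out, with Ucp2 added. The rule gave 43 of 19057 genes with a named probe. No probe named here belongs to Ucp2, which was therefore not analysed. Total liver RNA was measured on Illumina BeadChips, of which 3 carried wild-type (WT) samples and 3 carried samples labelled Igf2 KO (knockout). All 6 samples share the strain background mixed 129/ c57Bl/6, the age newborn and the tissue liver, and no treatment is named. The labels give neither the deleted part of Igf2, nor the parent that passed on the allele, nor whether an array held 1 pup or pooled pups.

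Carriers of this family sit in the inner mitochondrial membrane, with a few in the outer membrane or in peroxisomes, and move small molecules between the cytosol and the matrix. Each is built from repeats of a pair of membrane helices and most exchange one compound for another. In liver they supply the matrix with ADP, phosphate, coenzymes and iron, and they link the urea cycle, the synthesis of glucose and the synthesis of fat to the mitochondrion.

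Levels are given as log2 intensity, the logarithm of a probe's fluorescence after background correction, and a difference of 1 on this scale is 2-fold. Probes differ in binding, so levels were not compared between genes. Bulk liver was measured, so fewer cells of a type and less RNA per cell cannot be told apart. A probe counted as detected on an array at a detection p under 0.05, and a gene was tested if a probe was detected on at least 3 of 6 arrays. Of 43 members, 35 were tested and 31 of these were detected on all 6 arrays. The 8 others, Slc25a2, Slc25a21, Slc25a31, Slc25a35, Slc25a40, Slc25a41, Slc25a43 and Slc25a54, had no probe detected on any array and were not tested.

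Igf2 itself was at 14.23 ± 0.043 (log2 intensity, SD, n = 3) in WT and at 13.32 ± 0.19 in the knockout, a change of -0.91 ± 0.11 (SE; limma adjusted p = 0.0022). Arrays correlated with each other across genes at 0.987 to 0.991 within WT, 0.985 to 0.993 within the knockout and 0.967 to 0.977 between them. Of 8 hepatocyte markers all were detected and none passed the test (summed deposited intensity 115046 to 117363 in WT and 114046 to 117353 in the knockout). Knockout arrays 1 and 2 also held many lung transcripts. The summed intensity of 10 lung markers was 9089 and 23735 there, 689 on knockout array 3 and 623 to 739 on the WT arrays. Of the lung markers 5 were tested and 1, Sftpc, rose, and Sftpa1, Sftpb, Cldn18, Lamp3 and Slc34a2 were not tested. For exocrine pancreas markers the sums were 1205, 2464 and 324 on knockout arrays 1 to 3 and 259 to 341 in WT. Knockout array 3 held some of these transcripts too. Sftpc, Scgb1a1 and the pancreatic Reg1 were at 6.36, 5.87 and 6.07 there and were detected on no WT array. Xist reached 10.01 on WT array 1, 10.97 on knockout array 1 and 10.84 on knockout array 2, against 4.61 to 5.09 on the other arrays. The Y-linked genes Eif2s3y, Kdm5d and Uty were detected on all 6 arrays, those with high Xist included, and Eif2s3y was 9.82 to 10.10 in WT and 9.31 to 10.06 in the knockout. Kdm5d fell by 0.71 on the log2 scale (limma adjusted p = 0.0199), and Uty was 6.18 to 6.32 in WT and 5.51 to 6.10 in the knockout (adjusted p = 0.0584).

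Promoters are shown for 4 carriers that the results below turn on. They are Slc25a25 and Slc25a23, related carriers that changed in opposite directions, Slc25a28, which rose, and Slc25a30, which had the largest fall. Each line gives the 250 bases before a transcription start, 5′ to 3′ on the strand of the gene, from RefSeq on GRCm38.p6, and capitals mark matches to a CCAAT box or a GC box and, in Slc25a25, a cyclic AMP response element.
Slc25a25 (chr2:32424067-32424316, minus strand): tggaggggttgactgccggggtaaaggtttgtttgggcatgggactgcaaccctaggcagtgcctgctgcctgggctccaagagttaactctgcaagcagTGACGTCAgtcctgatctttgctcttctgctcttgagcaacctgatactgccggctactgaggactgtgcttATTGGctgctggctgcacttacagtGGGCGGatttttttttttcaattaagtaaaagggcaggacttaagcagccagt
Slc25a23 (chr17:57059843-57060092, minus strand): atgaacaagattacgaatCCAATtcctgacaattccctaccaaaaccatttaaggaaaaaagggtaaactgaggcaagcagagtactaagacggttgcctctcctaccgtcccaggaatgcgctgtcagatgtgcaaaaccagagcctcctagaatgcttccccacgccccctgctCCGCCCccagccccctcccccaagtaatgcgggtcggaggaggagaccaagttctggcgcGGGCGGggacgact
Slc25a28 (chr19:43674882-43675131, minus strand): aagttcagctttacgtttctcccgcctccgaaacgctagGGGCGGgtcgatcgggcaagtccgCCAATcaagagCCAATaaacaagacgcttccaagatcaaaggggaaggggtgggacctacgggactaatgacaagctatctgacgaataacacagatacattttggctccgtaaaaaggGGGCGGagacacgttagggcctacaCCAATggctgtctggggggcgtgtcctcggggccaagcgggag
Slc25a30 (chr14:75787038-75787287, minus strand): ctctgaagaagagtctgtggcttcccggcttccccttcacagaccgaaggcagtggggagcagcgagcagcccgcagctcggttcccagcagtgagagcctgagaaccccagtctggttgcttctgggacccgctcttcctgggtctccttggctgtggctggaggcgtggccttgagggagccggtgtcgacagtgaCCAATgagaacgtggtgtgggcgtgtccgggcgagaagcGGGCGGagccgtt

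These letters were searched on both strands after the expression values had been seen, and a match is a description, not a binding site. The CCAAT box (CCAAT) was present in 20 of 42 promoters of 33 members and in 33.8% of 32851 promoters of the RefSeq table. The GC box (GGGCGG) was present in 29 of 42, against 32.7% of all. Promoters of a gene can overlap, as for Slc25a23, so the same match can be counted more than once. By gene, 17 of 33 members had a CCAAT box and 23 of 33 a GC box. The share by gene over all genes was not computed. The cyclic AMP response element (TGACGTCA, which reads the same on both strands) was present in 2 of 42, those of Slc25a25 and Slc25a36, against 1.55% of all. In Slc25a25 it begins 150 bases before the start shown, which is 1 of 3 starts in the table, and which start the probe reports is not known. The glucocorticoid response element was present in 0 of 42 and in 0.387% of all. None of these motifs overlapped another in the 4 promoters printed. The table holds no promoter of Slc25a32.

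The comparison asks which carriers differ in liver at birth when Igf2 is disrupted. Of 35 carriers tested, 9 changed at a limma adjusted p under 0.05, against 16.7% of all 11346 genes tested. Slc25a32, Slc25a25, Slc25a28, Slc25a12 and Slc25a18 rose, which is 5 carriers against 8.23% of all genes higher. Slc25a30, Slc25a23, Slc25a42 and Slc25a45 fell, which is 4 carriers against 8.49% of all genes lower. As a share these were 14.3% and 11.4% of the 35 carriers tested. Changes of at least 2-fold were found for 2 carriers, Slc25a32 and Slc25a30, against 2.81% of all genes. The median log2 fold change of the tested carriers was 0.11, against 0.022 over all genes, and the median absolute change was 0.25 against 0.19.

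Counts depended on single arrays. The count of rises was 3 and that of falls 2 without knockout array 1, where 7.48% of all genes were called in place of 16.7%. The count of falls was 2 without WT array 1, where 8.72% of all genes were called. Without knockout arrays 1 and 2, where the lung transcripts were highest, 0 carriers rose and 1, Slc25a30, fell (limma, the lone knockout array assumed to vary like WT). In that fit 7 carriers had a higher and 4 a lower level at an unadjusted p under 0.05, and only 2.01% of all genes were called. The 9 changed carriers had the same direction there as with all arrays.

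**Figure D1:**
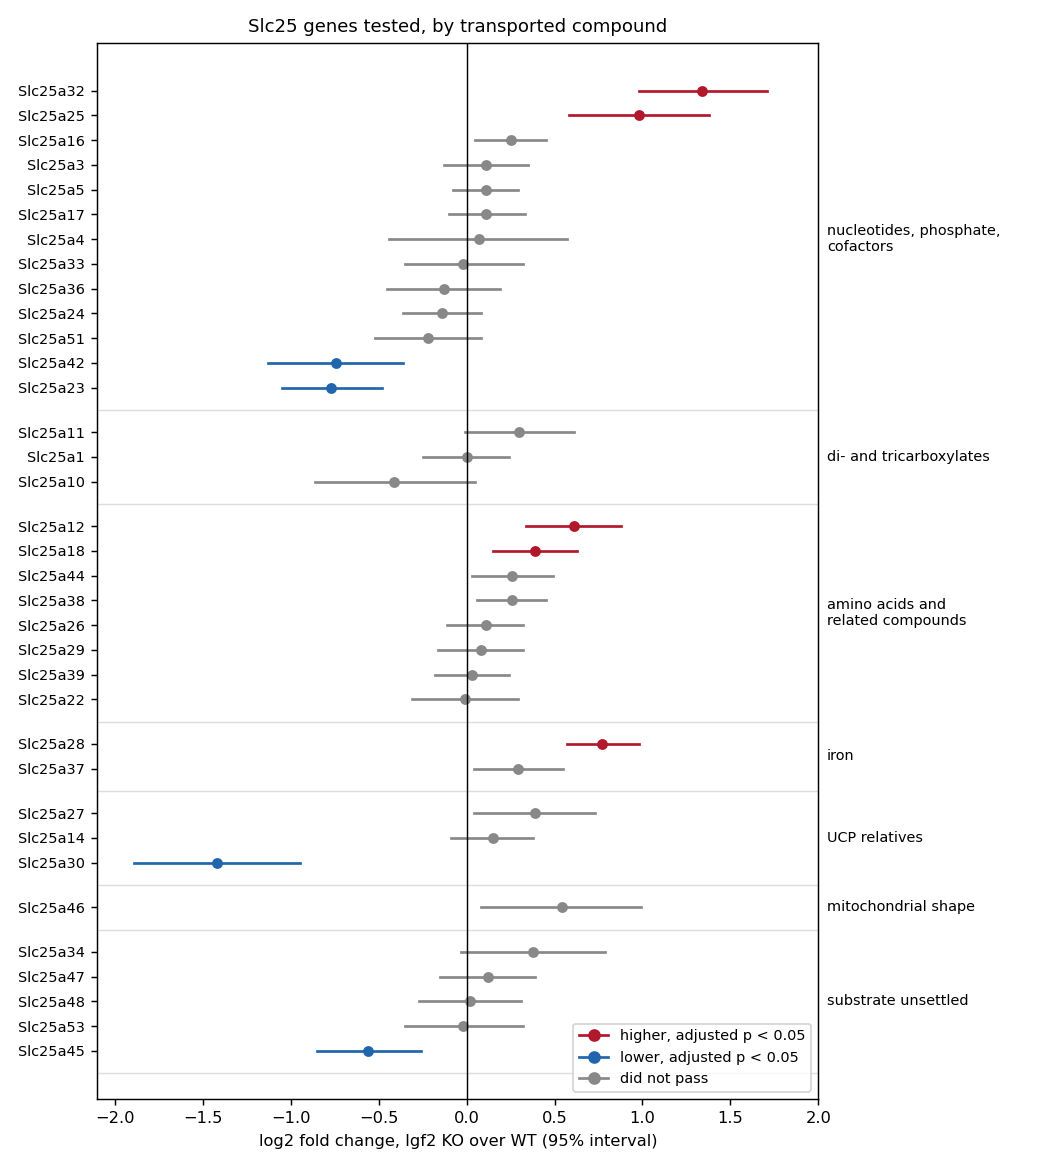
Log2 fold change of the knockout over WT (horizontal axis) with its 95% interval for the 35 carriers tested, 1 row per gene, grouped by the role assigned here. Red points rose and blue points fell at a limma adjusted p under 0.05, and grey points did not pass; rises reach 1.34 (Slc25a32) and falls reach -1.42 (Slc25a30), and both lie in groups whose other members are mostly grey.

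Among carriers of nucleotides, phosphate and nucleotide cofactors, 2 of 13 tested rose, 2 fell and 9 did not pass, with a median of 0.07. Counts in this and the other groups are small, to be set beside the 8.23% of all genes that rose and the 8.49% that fell, and nothing particular to a group is read from them. Slc25a32, the mitochondrial carrier of folate, is also known to take up flavin adenine dinucleotide. It had the largest rise of the family as defined here. Its log2 intensity was 7.16, 7.68 and 7.68 on WT arrays 1 to 3 and 8.73, 8.95 and 8.88 on knockout arrays 1 to 3. Every knockout array lay more than 1 unit above the highest WT array. The rise was 2.54-fold, or 1.34 ± 0.16 on the log2 scale (SE; limma adjusted p = 0.00184). It stayed between 1.17 and 1.43 with any 1 array left out, and was 1.37 without knockout arrays 1 and 2 (adjusted p = 0.0621). The other 2 probes of Slc25a32 were near background, with no detection in WT, so the rise rests on 1 probe. The deposit gives this probe 2 IDs, 1 of them that of a near-background probe, so which sequence gave the rise is not settled. With only probes whose ID did not differ, Slc25a32 was not tested.

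Slc25a23, Slc25a24 and Slc25a25 encode calcium-regulated carriers that exchange ATP-magnesium for phosphate and so adjust the pool of adenine nucleotides in the matrix. They went different ways. Slc25a25 rose 1.97-fold, from 10.09, 10.07 and 10.68 in WT to 11.38, 11.26 and 11.13 in the knockout. WT array 3 lay between the other WT arrays and the knockout, and the groups did not overlap. The log2 fold change was 0.98 ± 0.17 (SE; limma adjusted p = 0.00916). Slc25a23 fell to 58.8% of its WT level, from 7.61, 7.50 and 7.42 to 6.63, 6.62 and 6.98. Knockout array 3, where lung transcripts were lowest among the knockout arrays, was the highest of the knockout arrays and still below every WT array. This fall was -0.77 ± 0.12 (SE; limma adjusted p = 0.00659). Slc25a24 was at 7.56, 7.45 and 7.65 in WT and 7.51, 7.38 and 7.36 in the knockout, with overlapping groups and a difference of -0.14 (95% interval -0.36 to 0.08).

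Both calls held with any 1 array left out, with adjusted p up to 0.0458 for Slc25a25 and 0.0359 for Slc25a23. Slc25a25 was 0.85 (adjusted p = 0.186) and Slc25a23 -0.52 (0.159) without knockout arrays 1 and 2. With the lung markers as a covariate they were 0.87 (adjusted p = 0.108) and -0.52 (0.0904).

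Slc25a42, which carries coenzyme A into the matrix, fell to 59.8% of WT. Its values were 10.62, 10.60 and 10.90 in WT and 9.99, 9.65 and 10.26 in the knockout, without overlap. The fall was -0.74 ± 0.17 (SE; limma adjusted p = 0.0227). Leaving out WT array 1, WT array 3 or knockout array 1 ended the call, with an adjusted p of at most 0.0748. It was also lost with the sex covariate (-0.59, adjusted p = 0.0662), with the lung covariate (-0.39, 0.252) and without knockout arrays 1 and 2 (-0.45, 0.258). Its other 3 probes were near the detection limit, with differences of -0.25 to -0.08, and the mean of all its probes gave -0.33 (adjusted p = 0.105).

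Carriers that serve oxidative phosphorylation directly showed small differences. Slc25a5 and Slc25a4 encode ADP/ATP carriers and Slc25a3 the phosphate carrier. Slc25a5 was 13.41, 13.42 and 13.48 in WT and 13.56, 13.52 and 13.57 in the knockout, a difference of 0.11 (95% interval -0.08 to 0.29). These groups did not overlap, yet the difference did not pass the test (limma adjusted p = 0.38). The interval was -0.13 to 0.35 for Slc25a3 and -0.44 to 0.57 for Slc25a4, whose knockout arrays ranged from 5.81 to 6.68. Slc25a17 of peroxisomes, the pyrimidine nucleotide carriers Slc25a33 and Slc25a36, and Slc25a51, which carries NAD, lay between -0.22 and 0.11. Slc25a16, a carrier named for an autoantigen of Graves disease, was 9.23 to 9.26 in WT and 9.40 to 9.60 in the knockout, with an unadjusted p of 0.0229 and a limma adjusted p of 0.091.

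**Figure D2:**
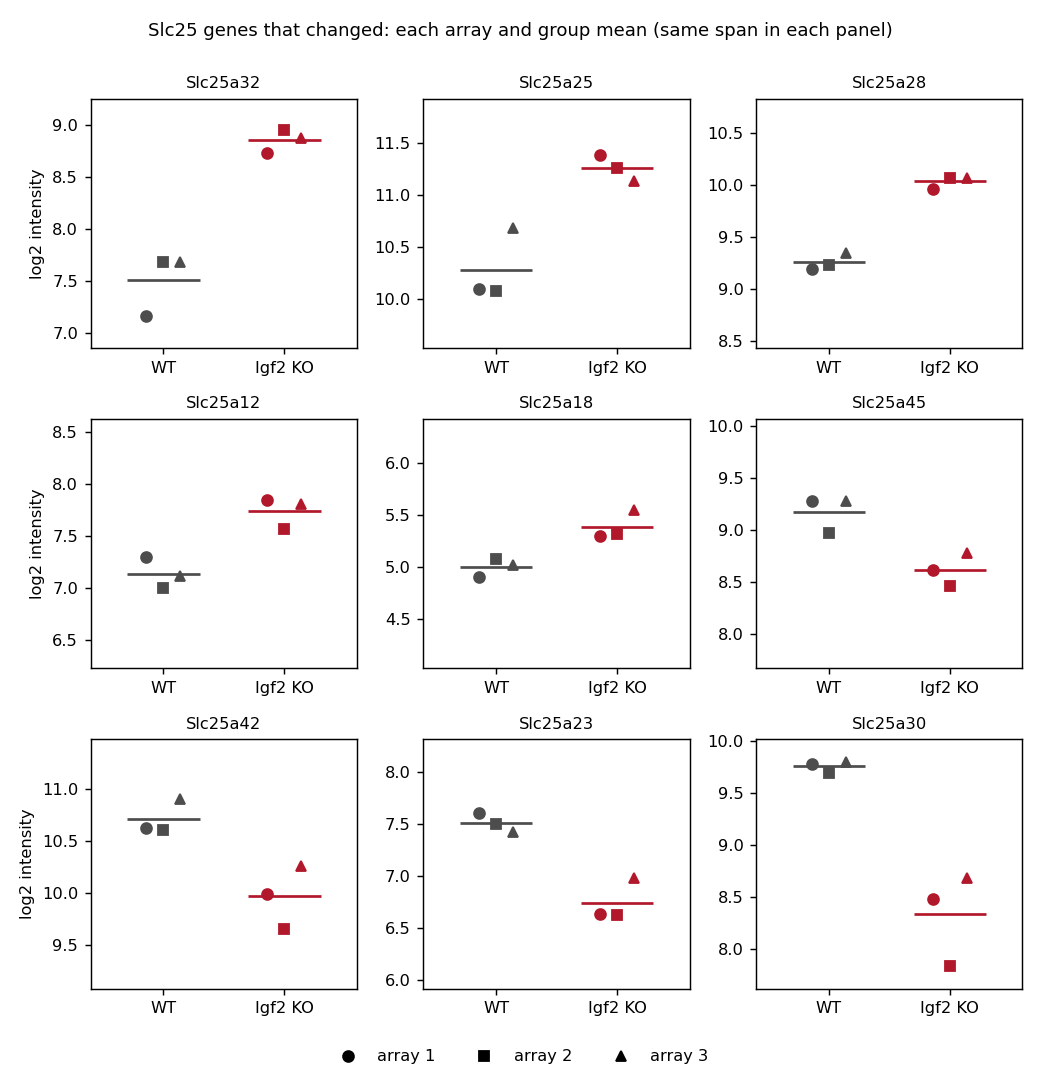
Log2 intensity (vertical axis, the same span in each panel) of the 9 carriers that passed the test, with a symbol per array and a line at the group mean of 3 arrays. In each panel the WT and knockout arrays do not overlap; for Slc25a23, Slc25a42, Slc25a45, Slc25a30 and Slc25a25 knockout array 3 (triangle) is the knockout array nearest to WT.

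The carriers of di- and tricarboxylates did not pass the test, with 0 of 3 tested called. Slc25a1, the citrate carrier that exports citrate for the synthesis of fatty acids and sterols, was 9.72 to 9.98 in WT and 9.82 to 9.96 in the knockout (95% interval of the difference -0.25 to 0.24). Slc25a11 exchanges oxoglutarate for malate in the malate-aspartate shuttle. It was 10.40, 10.51 and 10.42 in WT and 10.86, 10.45 and 10.92 in the knockout, where array 2 lay within the WT range. Its difference of 0.30 ± 0.13 (SE) had a limma adjusted p of 0.164. With any 1 array left out it was 0.21 to 0.44 (adjusted p 0.0325 to 0.385), and it was largest without knockout array 2. Slc25a10, the dicarboxylate carrier, was 9.60, 9.13 and 8.98 in WT and 8.80, 8.56 and 9.13 in the knockout, so the groups overlapped (difference -0.41, 95% interval -0.86 to 0.05).

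Among carriers of amino acids and related compounds, 2 of 8 tested rose and 0 fell, with a median of 0.18. Slc25a12 encodes aralar, an exchanger of aspartate and glutamate that is the other partner of the malate-aspartate shuttle. It rose 1.53-fold, from 7.30, 7.00 and 7.11 in WT to 7.85, 7.57 and 7.81 in the knockout. Each knockout array lay above each WT array. The log2 fold change was 0.61 ± 0.12 (SE; limma adjusted p = 0.0132), and its second probe gave 0.51 (adjusted p over all probes = 0.0781). The call was lost without knockout array 1 (adjusted p = 0.062), with the lung covariate (0.72, adjusted p = 0.0624) and without knockout arrays 1 and 2 (0.68, 0.12).

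Slc25a18, a mitochondrial glutamate carrier, was close to the detection limit. Its values were 4.90, 5.07 and 5.02 in WT, where 2 of 3 arrays detected it, and 5.29, 5.31 and 5.54 in the knockout, where all did. The difference was 0.39 ± 0.10 (SE; limma adjusted p = 0.0419), and the call was lost without any 1 of the 6 arrays (adjusted p 0.0646 to 0.129) and with the replicate block (0.0663). The difference was 0.20 (adjusted p = 0.1) with an offset of 50 and 0.65 (0.0217) without normexp, and of 19 alternatives 12 ended the call. The related glutamate carrier Slc25a22 was detected on 1 WT and 2 knockout arrays, at 4.70 to 5.02 and 4.68 to 5.06.

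Slc25a38, which carries glycine for the first step of heme synthesis, was 11.05, 10.99 and 11.03 in WT and 11.22, 11.24 and 11.37 in the knockout. The groups did not overlap, and the difference of 0.26 had an unadjusted p of 0.0178 and a limma adjusted p of 0.0776. Its other 2 probes gave 0.29 and 0.36, and the latter passed over all probes (adjusted p = 0.0336). Slc25a44, a carrier of branched-chain amino acids, was 8.48 to 8.69 in WT and 8.74 to 8.91 in the knockout (0.26, unadjusted p = 0.0296, limma adjusted p = 0.106). Slc25a26, which carries S-adenosylmethionine, Slc25a29, which carries basic amino acids, and Slc25a39, which is needed for import of glutathione, lay between 0.03 and 0.11.

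Slc25a28 and Slc25a37 encode mitoferrins, which bring iron into the matrix. Slc25a37 is the form of red cell precursors and Slc25a28 is expressed more widely. Slc25a28 rose 1.71-fold, from 9.19, 9.23 and 9.35 in WT to 9.96, 10.07 and 10.07 in the knockout. The arrays of each group lay close together and the groups were well apart. Its log2 fold change of 0.77 ± 0.089 (SE) had a limma adjusted p of 0.0018 and stayed between 0.74 and 0.82 with any 1 array left out. It was 0.81 without knockout arrays 1 and 2 (adjusted p = 0.0656). Slc25a37 was 12.19, 12.27 and 12.50 in WT and 12.54, 12.73 and 12.58 in the knockout. The groups did not overlap, but WT array 3 (12.50) lay next to knockout array 1 (12.54), and the difference of 0.29 did not pass (unadjusted p = 0.0284, limma adjusted p = 0.104). With any 1 array left out this difference was 0.23 to 0.38 (limma adjusted p 0.0477 to 0.263), and it was largest without WT array 3.

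Red cell precursors are part of newborn liver, and their markers are given beside the iron and glycine carriers. Of 15 erythroid markers, 11 were tested, and 2 rose, Slc4a1 (0.32, limma adjusted p = 0.0392) and Gata1 (0.49, 0.0456). The median of the 11 was 0.21. Of the 9 that did not pass, Alas2 was lower (-0.11), Hemgn was at 0.01 and the rest were higher. The summed intensity of the 12 erythroid markers with a probe was 34196 to 35649 in WT and 36934 to 41528 in the knockout. Bright probes weigh most in this sum, and that of Slc4a1 was the brightest. Epb42 was not detected. The erythroid sums did not overlap between the genotypes, so erythroid level and genotype cannot be told apart here. With the erythroid level as a covariate, 2 genes were called in the whole table, and Slc25a28 was at 0.74 (limma adjusted p = 0.332), Slc25a37 at 0.32 (0.689) and Slc25a38 at 0.16 (0.803).

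Of 3 relatives of the uncoupling proteins tested, 1 fell and 2 did not pass. Slc25a30, a close relative of uncoupling protein 5 first described in kidney, had the largest fall of the family. Its values were 9.78, 9.70 and 9.80 in WT and 8.48, 7.84 and 8.69 in the knockout. The WT arrays lay close together, whereas knockout array 2 lay well below the other knockout arrays. The level was 37.4% of WT, a change of -1.42 ± 0.20 on the log2 scale (SE; limma adjusted p = 0.00405). The call held with any 1 array left out (-1.60 to -1.17), with the lung covariate (-0.96, adjusted p = 0.0384) and without knockout arrays 1 and 2 (-1.07, 0.03).

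Slc25a14, which encodes uncoupling protein 5 itself, was 6.55 to 6.68 in WT and 6.65 to 6.90 in the knockout (95% interval of the difference -0.09 to 0.38). Slc25a27, uncoupling protein 4 of the nervous system, was not detected on any WT array (4.44, 4.85 and 4.81) and was detected on all 3 knockout arrays (4.97, 5.32 and 4.98). It entered the test through the knockout group alone and did not pass (limma adjusted p = 0.113). Knockout arrays 1 and 3 lay within the range of the dimmest detected probe of each WT array, 4.93 to 5.03, so no fold is given. Its other probe was detected on no array. Ucp1 and Ucp3 were not detected often enough to be tested. Of 4 brown fat markers only Cidea was tested, and it rose from 5.71 to 6.43 in WT to 6.58 to 8.61 in the knockout (1.85, limma adjusted p = 0.0419).

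Slc25a46, an outer membrane protein that acts on mitochondrial shape, was 5.30, 5.04 and 5.86 in WT and 6.02, 5.82 and 5.98 in the knockout. WT array 3 fell among the knockout arrays, and the difference of 0.54 ± 0.20 (SE) had an unadjusted p of 0.0263 and a limma adjusted p of 0.0992. With any 1 array left out the difference was 0.36 to 0.77 (limma adjusted p 0.0106 to 0.238). It was largest without WT array 3, the WT array nearest to the knockout.

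Of 5 tested carriers placed here in the group of unsettled substrate, 1 fell and 4 did not pass. Slc25a45 fell to 68% of WT, from 9.28, 8.97 and 9.28 to 8.62, 8.46 and 8.78. Every knockout array was below every WT array. The fall was -0.56 ± 0.13 (SE; limma adjusted p = 0.0249), and leaving out WT array 1, WT array 3, knockout array 1 or knockout array 2 ended the call, with an adjusted p of at most 0.0867. It was -0.53 with the sex covariate (adjusted p = 0.0785), -0.37 with the lung covariate (0.265) and -0.40 without knockout arrays 1 and 2 (0.324). Slc25a47, a carrier found mainly in liver, was 13.06, 13.33 and 13.08 in WT and 13.37, 13.12 and 13.35 in the knockout, with a 95% interval of -0.15 to 0.39. Slc25a34 was 5.65, 5.76 and 6.24 in WT and 6.22, 6.07 and 6.50 in the knockout, so the groups overlapped. Its difference of 0.38 did not pass (limma adjusted p = 0.177), and a dimmer probe was detected on all 3 knockout arrays and on no WT array. Slc25a48 and Slc25a53 had differences of 0.02 and -0.02. Slc25a48 was detected on only 1 WT and 2 knockout arrays and lay near background, at 4.74 to 5.14 in WT and 4.83 to 5.05 in the knockout.

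The 26 carriers that did not pass split into 18 with a higher and 8 with a lower mean in the knockout. Slc25a27 is among the 18, and some differences were very small, such as 0.02 for Slc25a48 and -0.02 for Slc25a53. The share with a higher mean over all genes that did not pass was not computed, so nothing is read from this split. Of the 35 carriers tested, 6 had an unadjusted p under 0.05 but an adjusted p of 0.05 or over, against 16.9% of all genes. They were Slc25a16, Slc25a27, Slc25a37, Slc25a38, Slc25a44 and Slc25a46. Without Slc25a27, which entered through the knockout arrays alone, they were 5. The other 20 that did not pass lay between -0.41 and 0.38. Values of the groups did not overlap for 15 of 35 carriers, a share of 42.9% against 39.1% of all genes. Of the 35 carriers, 11 were higher without overlap, against 20.8% of all genes, and 4 were lower, against 18.3%. Without Slc25a27 the higher ones were 10.

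Probes of one gene pointed the same way. Of the members tested, 9 had more than 1 detected probe, and 14 of 14 further probes had the sign of the brightest one, although 1 of them, of Slc25a34, was detected on knockout arrays alone. Some of the differences were very small, such as -0.04 for a probe of Slc25a1 and -0.01 for a probe of Slc25a36, so their signs say little. The share of such agreement over all genes was not computed. Of the 9 changed carriers only Slc25a12 and Slc25a42 had a further detected probe, 4 probes in all. Those of Slc25a42 were near the detection limit, with differences of -0.25 to -0.08 against -0.74 for the brightest.

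Related carriers were compared within each array, which removes what both members share on an array. The difference between the logs of 2 probes has no meaning as a level, so only its change between genotypes was read. Of 8 pairs, 6 had differences that did not overlap between genotypes, each with an exact permutation p of 0.10 (two-sided; adjusted over the 8 pairs, 0.13). This is the smallest p that 3 arrays against 3 allow, so no pair could pass. Each of the 6 holds a carrier already called on the same arrays, so the pairs restate those calls and are no separate support. The share of such pairs among other genes was not computed. Slc25a25 gained 1.12 on Slc25a24, and Slc25a24 gained 0.63 on Slc25a23. Slc25a37 lost ground to Slc25a28, with a change of -0.48 (SD 0.07 within each genotype, n = 3). Slc25a30 changed by -1.57 relative to Slc25a14. The pair of Slc25a22 and Slc25a18 is among the 6, but Slc25a22 was not detected on 2 WT arrays and both lay near background, so its value is not read.

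Among the pairs compared, that of the aspartate and glutamate exchangers had opposite calls for its members. Slc25a25 and Slc25a23 also had opposite calls but were not compared with each other as a pair. Slc25a13, citrin, the main exchanger of adult liver, is outside the family as defined here and was lower by -0.51 ± 0.11 (SE; limma adjusted p = 0.0222), while Slc25a12 was higher. The log2 difference of Slc25a13 minus Slc25a12 was 1.38, 1.99 and 1.57 in WT and 0.52, 0.63 and 0.44 in the knockout, a change of -1.12. Of the other carriers the rule left out, Slc25a15, the ornithine carrier, was 1.46 ± 0.085 higher (adjusted p = 0.000137) and Slc25a20, the carnitine and acylcarnitine carrier, -0.39 ± 0.088 lower (0.023). The pairs Slc25a4 with Slc25a5 and Slc25a33 with Slc25a36 overlapped between genotypes, with changes of 0.04 and -0.12.

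**Figure D3:**
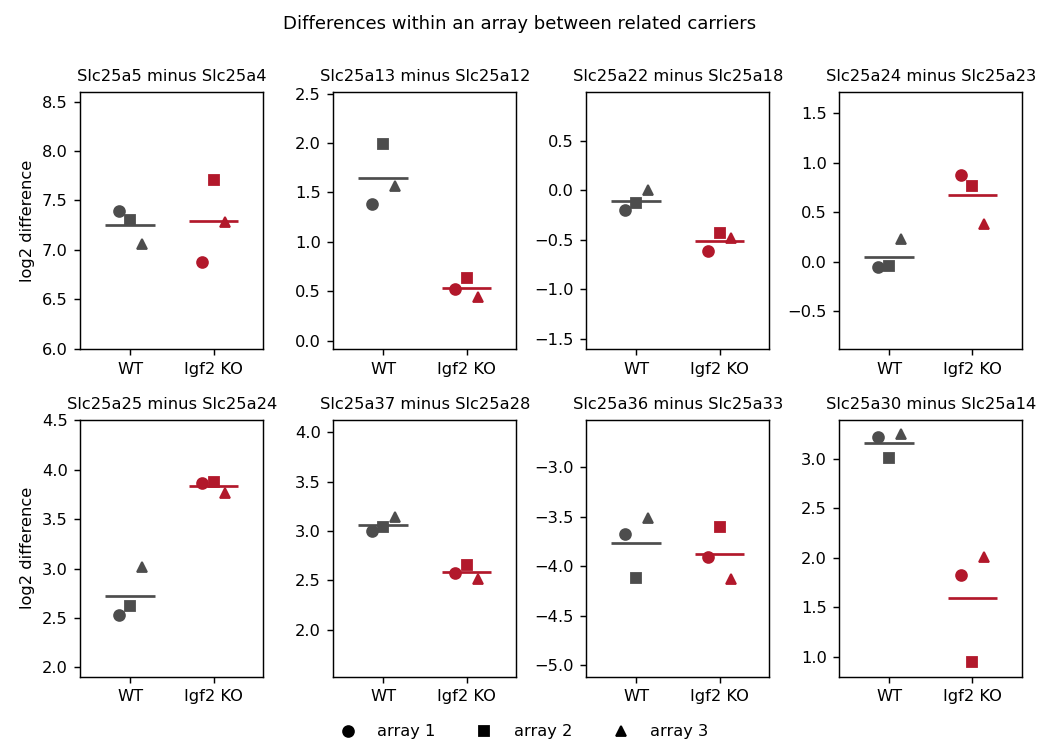
Difference in log2 intensity between related carriers within each array (vertical axis, the same span in each panel), with a symbol per array and a line at the mean of 3 arrays. WT and knockout arrays overlap for Slc25a5 minus Slc25a4 and for Slc25a36 minus Slc25a33 and are apart in the other 6 panels.

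Genes that work beside the carriers were read from 5 lists, whose counts stand against 8.23% of all genes higher and 8.49% lower. Proteins of this family are imported through the outer membrane pore and small chaperones of the space between the membranes. Of 11 tested import genes, 1 rose and 0 fell (median 0.09). It was Tomm40, the pore itself, at 7.40 to 7.52 in WT and 8.04 to 8.16 in the knockout, with a change of 0.62 ± 0.085 (SE; limma adjusted p = 0.00333). With only probes of equal ID in both deposited tables, Tomm40 had 0.24 (adjusted p = 0.126).

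Of 11 tested enzymes on either side of the malate, aspartate and citrate carriers, 0 rose and 3 fell (median -0.08). Gpd2 and Gpd1, the mitochondrial and cytosolic glycerol 3-phosphate dehydrogenases that form the other shuttle for cytosolic NADH, changed by -1.74 ± 0.17 and -1.06 ± 0.22 (SE; limma adjusted p = 0.00101 and 0.0192). The call of Gpd1 ended when knockout array 1 (adjusted p = 0.0614) or knockout array 2 (0.0587) was left out. Idh1, cytosolic isocitrate dehydrogenase, changed by -1.19 ± 0.097 (adjusted p = 0.000481). Got2, Mdh1 and Mdh2, enzymes of the malate-aspartate shuttle, were tested and did not pass, and Got1 was not analysed here.

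Of 15 tested genes of heme and iron-sulfur synthesis, 1 rose and 1 fell (median 0.11). Alas1, the first enzyme of heme synthesis outside red cells, changed by 0.64 ± 0.14 (SE; limma adjusted p = 0.0248) and Cpox, coproporphyrinogen oxidase, by -0.67 ± 0.16 (0.0307). Both calls depended on single arrays. Rises numbered 0 when WT array 1, WT array 2, knockout array 1 or knockout array 3 was left out, and 2 when WT array 3 was. Falls numbered 0 when WT array 1, WT array 3, knockout array 2 or knockout array 3 was left out.

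Of 12 other transporters and pores of the mitochondrial membranes, 0 rose and 1 fell (median 0.20). Micu2, a regulator of the calcium uniporter, changed by -0.46 ± 0.092 (SE; limma adjusted p = 0.0153). This list had 0 falls without WT array 1 or knockout array 1 or 3, 2 falls without WT array 3 and 1 rise without WT array 3.

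Of 17 tested genes of mitochondrial genome upkeep, proteases and chaperones, 2 rose and 1 fell (median 0.08). Ppargc1a, a coactivator of mitochondrial and gluconeogenic genes, was 7.09, 8.18 and 6.62 in WT and 9.65, 9.71 and 9.52 in the knockout. The WT arrays were spread over more than 1 unit and all lay below the knockout, a 5.01-fold rise (2.33 ± 0.35, SE; limma adjusted p = 0.00488). Esrra, a nuclear receptor that works with this coactivator, rose by 0.84 ± 0.13 (adjusted p = 0.00626). Polg, the mitochondrial DNA polymerase, changed by -0.44 ± 0.11 (0.0338). This single fall of the list ended when any array but WT array 1 was left out, with changes of -0.48 to -0.36 and an adjusted p of at most 0.112. It also ended with the replicate block (-0.44, adjusted p = 0.0617), the sex covariate (-0.34, 0.103) and the lung covariate (-0.36, 0.267). Without knockout arrays 1 and 2, Ppargc1a was 2.22 (limma adjusted p = 0.119) and Esrra 0.90 (0.114), about as large as with all arrays but not called, and of the 10 genes of these lists that changed, Idh1 and Gpd2 passed in that fit.

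**Figure D4:**
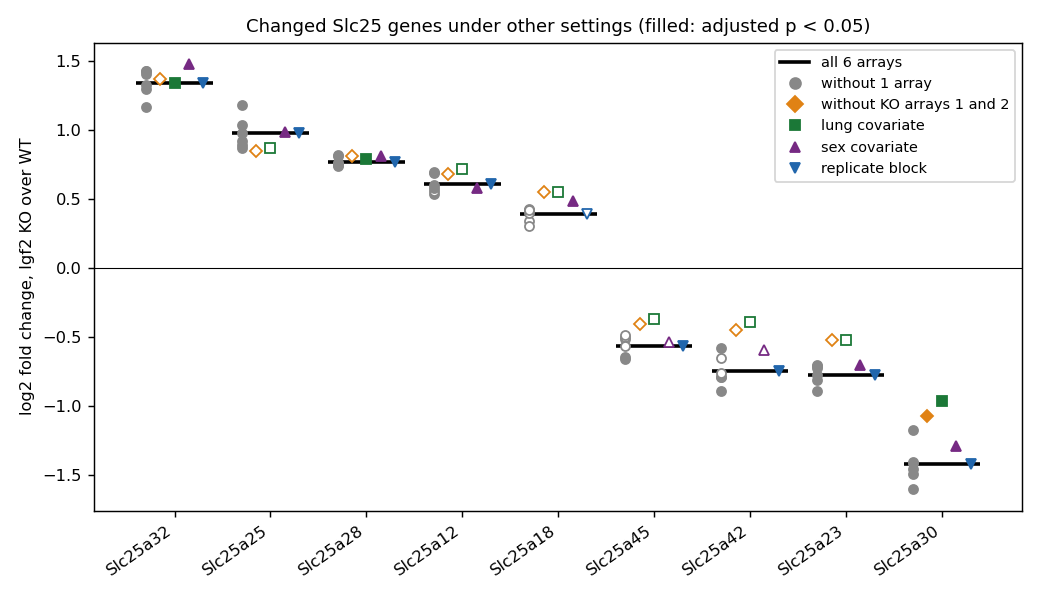
Log2 fold change of the knockout over WT (vertical axis) for the 9 changed carriers with all 6 arrays (black line), with 1 array left out, without knockout arrays 1 and 2, with a lung or sex covariate and with the replicate block. Filled symbols have a limma adjusted p under 0.05; no symbol crosses 0, and the 4 carriers that fell lie closer to 0 with the lung covariate and without knockout arrays 1 and 2.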

How the data were processed

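Livers of newborn mice were measured on 6 Illumina arrays, 3 WT and 3 Igf2 KO, grouped by the sample titles. Nothing in the labels says that arrays came from separate pups, so p-values measure the spread between these samples, which may be technical. The authors deposited 2 tables of probe intensity, and 1 of them also holds the deposited detection p-values. Both hold the same values, which were background-subtracted and normalized between arrays before deposit: 25.0% to 25.1% of the intensities of an array lie below 0 and sorted values of the arrays differ by at most 0.2. The software is not given in the sources used here. Of 45281 probes, 46.3% to 49.9% were detected per array. The tables were joined by their 6 values per row. Probe IDs differ between them for 9535 rows, and the shares of all genes rest on the IDs of 1 table. With only probes of equal ID, 10579 genes were tested and 17% were called. The IDs differ for 5 of the 35 carriers tested, Slc25a32 among the changed ones, and both IDs name the same gene.

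Intensities were corrected with limma's neqc (version 3.58.1, R 4.3.3, offset 16), which takes log2. The offset makes fold changes of dim genes too small. Each of 11346 genes was represented by its detected probe with the highest mean and compared with lmFit and eBayes (two-sided, Benjamini-Hochberg over all genes, adjusted p under 0.05). Symbols came from the platform annotation, updated through RefSeq. Covariates were Xist minus the Y genes (sex) and the mean of the lung or erythroid markers. The comparison was tested on simulated data. The number of arrays limits the precision. Members, gene lists and tests were chosen with earlier results of these data known. Text values follow a rule: all members are accounted for, with array values for those that passed, for those with an unadjusted p under 0.05 and for the smallest p of each role, and up to 3 changed genes per direction of each other list; further values were chosen after they were seen. Marker lists of macrophages, neutrophils, exocrine pancreas and skeletal muscle had 0 of 9, 0 of 9, 1 of 2 and 1 of 4 tested genes changed. The summed intensity of the neutrophil markers was 59550 to 64257 in WT and 55748 to 58009 in the knockout. These sums did not overlap, so neutrophil level and genotype cannot be told apart either.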

Additional observations from a re-analysis of the deposited data

How the results depend on the processing

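Alternatives were run for 16 carriers and 10 partner genes, and none of the values obtained changed direction. Other genes named were not rerun, and Slc25a18, Slc25a27 and Slc25a32 were tested under 19, 18 and 20 of the 21 alternatives. Rises of carriers numbered 3 to 7 and falls 2 to 4 with 1 array left out, against 5 and 4 with all arrays. Array weights gave 8 rises, with 26.7% of all genes called in place of 16.7%. Leaving out knockout arrays 1 and 2 for the partner lists was chosen after seeing the data. The lung covariate gave 2 rises and 1 fall (5.08% of all genes called), the sex covariate 2 falls (10.2%), and the fit without knockout arrays 1 and 2 gave 0 rises and 1 fall (2.01%). The erythroid covariate gave 0 rises and 0 falls in limma (5 and 1 at an unadjusted p under 0.05), with 2 genes called in the whole table. The cause of these changes was not tested. With the replicate block 4 carriers rose and 4 fell, and 1323 genes were called. Deviations of same-numbered arrays of the genotypes correlated at -0.00444, 0.028 and 0.0152, and those of differently numbered arrays at -0.108 to 0.108. These values show no sign that the numbers pair the arrays, but with so few arrays they cannot exclude it. Over the 26 named genes, 439 of 540 alternative values kept their side of the threshold, 91 lost the call and 10 gained it. The 26 include carriers not called with all arrays, such as Slc25a16, for which staying uncalled counts as kept. Losses can only come from called genes, so 439 of 540 overstates how stable the calls were. Slc25a18 lies near background and was left untested by the strict filter and at a detection p of 0.01. The 8 pair values kept their direction without normexp. Carriers not detected here may be expressed below the limit of the array.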
